A study of Mus musculus with 13 samples.

Results

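Cdkn2a/Braf melanoma (2 arrays) was compared with Lkb1/Braf melanocytic proliferation (3 arrays), lesions of the mouse that share an oncogenic Braf allele and differ in the tumour suppressor that was lost. These 5 arrays were chosen by their titles from the 13 whole-transcript Affymetrix arrays of the study, which measures messenger RNA in 6 groups. The melanomas carry the genotype label Cdkn2a/Braf and the proliferations the label Lkb1/Braf, Lkb1 being the kinase that the gene Stk11 encodes, and each proliferation array holds pooled lesions by its description. Both tissues were taken uncultured, so melanocytic cells were measured together with the skin and stroma around them, and fewer cells of a type and less RNA per cell cannot be told apart. The other 8 arrays were 2 of Cdkn2a/Braf/Lkb1 melanoma and 6 of melanocytes sorted by flow cytometry, with 2 arrays each of Cdkn2a/Braf cells at day 19, Cdkn2a/Braf cells at day 50 and Cdkn2a-only cells at day 19. They entered the estimate of the spread, and their levels are given in places for orientation. The sources used here do not give strain, age and sex of the animals or the promoter that drove recombination. The lost suppressor, the kind of lesion and the pooling change together in this pair of groups, and their parts cannot be told apart.

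Oncogenic Braf signals through the ERK MAP kinase cascade, makes melanocytes multiply and then usually arrests them, as in a mole. Cdkn2a encodes an inhibitor of the cyclin D kinases and an inhibitor of Mdm2, and its loss removes brakes on RB and p53 control of growth. Lkb1 activates AMPK and the related SIK and MARK kinases and through AMPK restrains mTORC1, the kinase complex that couples nutrients to growth. Melanocytes arise from the neural crest and make pigment under the transcription factor Mitf, and melanomas can lose that pigment programme while they keep or regain neural crest features.

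Levels are log2(intensity + 1), differences are melanoma minus proliferation on that scale with their standard error (SE), and folds are 2 to the power of the difference. Levels of different genes are not comparable on arrays, and differences of dim genes are understated. The spread of levels over genes, as the interquartile range on the log2 scale, was 2.45 and 2.53 on the melanoma arrays and 2.00, 2.04 and 2.11 on the proliferation arrays, at medians of 6.50 and 6.47 on the melanoma arrays and 6.57, 6.56 and 6.54 on the proliferation arrays. Titles call the arrays of both groups biological replicates, and the spread of pooled proliferations does not show the spread from lesion to lesion.

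The 2 melanoma arrays stood apart from each other in markers of other cells. The 26 measured keratinocyte markers summed to an intensity of 1624 and 14908 on the melanoma arrays (replicates 1 and 2), against 45430, 41355 and 44695 on the proliferation arrays. The 16 mast cell markers summed to 1956 and 6052 in melanoma and 2489, 2309 and 2086 in the proliferations, so melanoma replicate 2 was the high array of all 5. Its mitosis genes were the lowest, with a mean level over 28 genes of 7.98 and 6.84 in melanoma against 7.52, 7.49 and 7.87 in the proliferations. Among the proliferations, replicate 1 differed in skeletal muscle, whose 21 markers summed to 5185 and 1463 in melanoma and 3420, 30087 and 27671 in the proliferations. Results that rest on 1 of these arrays are given with and without it. A fit with the replicate number as a block ended 45 of the named calls, which are not marked gene by gene below. Calls said to hold under every alternative held with this block too.

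The arrays also split by sex-linked genes. Xist, the RNA that silences an X chromosome in female cells, had 4.76 and 4.44 in melanoma against 10.56, 10.47 and 10.98 in the proliferations, and Eif2s3y, a Y-linked translation factor gene, had 7.35 and 8.35 in melanoma against 3.41, 3.48 and 3.29 in the proliferations. Neither gene's groups overlapped, so sex and lesion cannot be told apart within these 5 arrays. A fit with the sex of all 13 arrays as a covariate, added after the data were seen, was run beside every result. Xist differed within a group only in sorted Cdkn2a/Braf cells at day 19 (10.12 and 4.82) and in Cdkn2a-only cells (4.64 and 10.63). That fit thus takes its sex effect from sorted cells alone. Whether the same effect holds in the lesions was not tested, and a lost call does not show that sex caused the difference.

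The targeted genes gave no check of the genotypes. Braf had 8.30 and 8.44 in melanoma against 8.05, 7.97 and 8.17 in the proliferations, a difference of 0.31 (SE 0.11, limma adjusted p = 0.0802). Stk11 had 8.90 and 8.63 in melanoma against 8.09, 8.23 and 8.36 in the Lkb1/Braf proliferations (0.54, SE 0.35, limma adjusted p = 0.316), and Cdkn2a had 6.52 and 6.46 in melanoma against 6.62, 6.60 and 6.24 in the proliferations (-0.00, SE 0.15, limma adjusted p = 0.998). None of the 3 passed the test, the Braf and Stk11 arrays did not overlap between the lesions, and the Cdkn2a arrays did. The spread behind the Stk11 test includes 9.17 and 7.66 in sorted Cdkn2a/Braf cells at day 50. The labels do not say where the probes lie relative to the altered exons.

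Expression differed widely between the lesions. Of 19937 genes tested with limma, 4277 (21.5%) had an adjusted p under 0.05, of which 2507 (12.6% of genes) were higher in melanoma and 1770 (8.88%) were lower. The median difference over all genes was -0.02. When a size of 1 or more was asked for as well, with the arrays of the lesions apart, 1106 genes (5.55%) were higher and 558 (2.8%) lower, while groups without overlap alone were found for 58% of all genes. Quantile normalization gave 1461 higher and 1743 lower genes, so that 45.6% instead of 58.6% of the calls were higher, and scaling to a common median and interquartile range gave 66.9% higher and moved the median of all genes to 0.14. Leaving out melanoma replicate 1 left 1297 higher and 918 lower genes, leaving out replicate 2 left 1384 and 944, and with sex as a covariate 632 higher and 389 lower genes remained, of which 607 and 376 were among the main calls. Of the 233 genes named with a call, 134 lost it with sex as a covariate, 80 without melanoma replicate 1 and 61 without melanoma replicate 2. Read against these shares, lists of pigment, hair, keratinocyte, adipocyte and sterol genes were called lower far more often than all genes. Lists of receptor kinases, MAPK output, integrins and cadherins were more often called higher, as was a joint list of cyclins, their kinases and inhibitors and the RB family. A fit of the 9968 genes above the median level called 2226 higher and 674 lower, a larger share of higher calls than over all genes. Whether these lists exceed genes of like level was not tested.

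**Figure D1:**
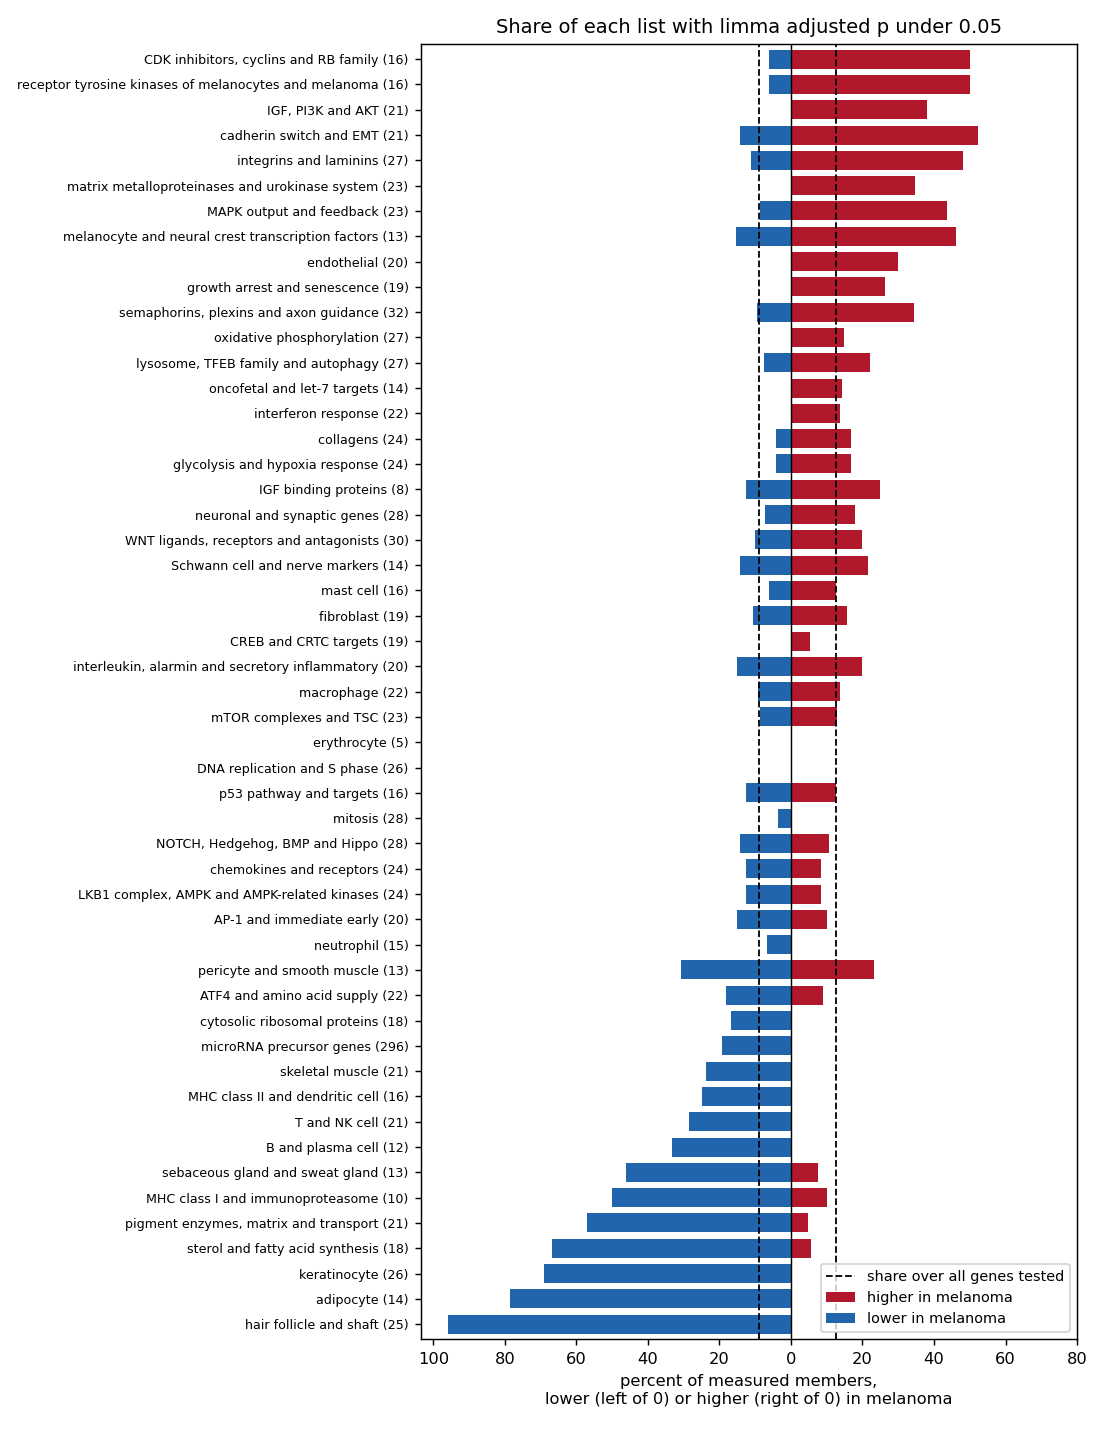
Percent of the measured members of each list (number measured in brackets) with limma adjusted p under 0.05, lower in Cdkn2a/Braf melanoma to the left of 0 and higher to the right, with the shares over all 19937 genes as dashed lines (8.88% lower, 12.6% higher). Hair follicle genes reach 96% lower, and cadherin and EMT genes reach 52.4% higher.

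**Figure D2:**
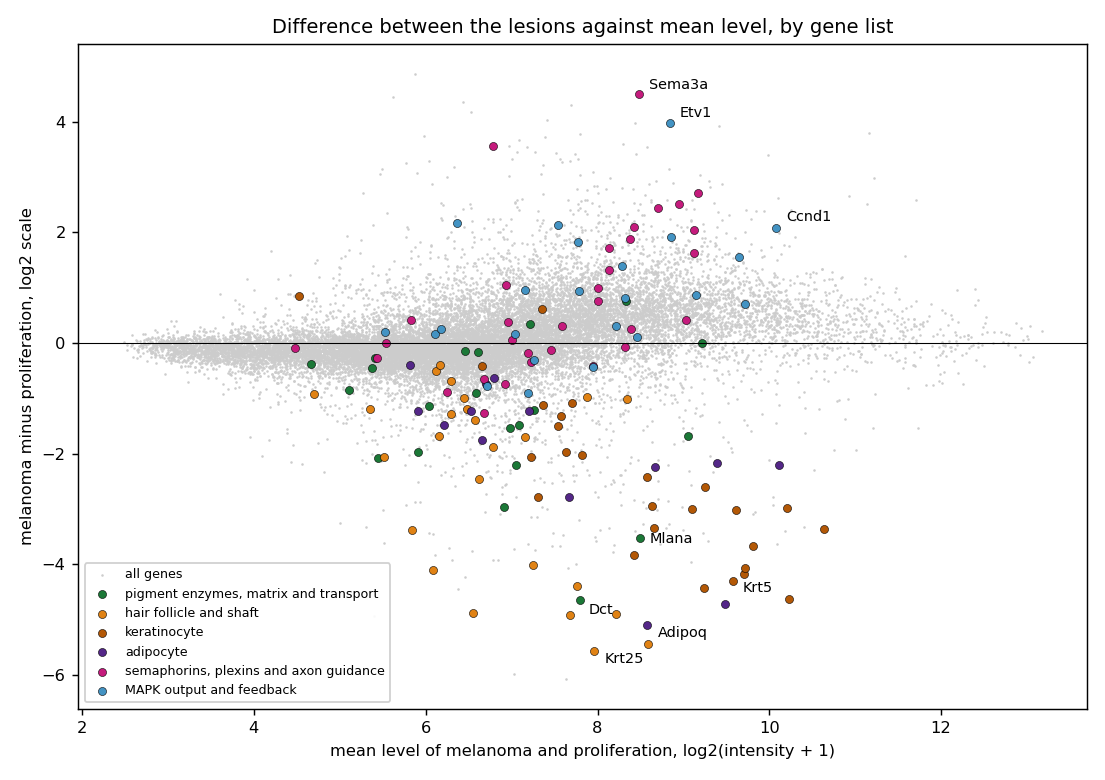
Melanoma minus proliferation for each gene (log2 scale, vertical axis) against its mean level in the 2 groups (log2(intensity + 1), horizontal axis), with 6 lists coloured. Pigment, hair, keratinocyte and adipocyte genes lie below 0 with few exceptions, while most axon guidance and MAPK output genes of high level lie above it.

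Pigment genes were lower in melanoma. Of the 21 genes for melanin enzymes, melanosome matrix and melanosome transport, 12 fell, 1 rose and 8 did not pass (61.9% called, against 21.5% of all genes), with a median difference of -1.14 against -0.02 over all genes. The 4 largest were Dct, Mlana, Tyrp1 and Pmel. The list's mean level was 6.12 and 6.24 in melanoma and 7.44, 7.40 and 7.48 in the proliferations, and 12 of the 21 lay below the median gene of their array on both melanoma arrays, against 4 on all 3 proliferation arrays.

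For part of these genes the promoter can be shown beside the values, because Mitf is known to bind the hexamer CATGTG in promoters of melanin enzymes. RefSeq promoter windows (GRCm38.p6, 250 bases before to 50 after each start) were found for 15 of the 21 genes. CATGTG was searched on both strands, with CACATG as its reverse complement, and a gene counted if any of its windows held it. It was in 7 of the 15 genes (46.7%) and in 5 of the 7 genes with a window that fell (71.4%). Of all measured genes with a window it was in 1962 of 15613 (12.6%). The stretches of the 5 genes that fell are given with the hexamer in capitals, read 5′ to 3′ along the gene's strand. They lie at chr7:87493513-87493558 (minus strand) for Tyr, chr4:80834142-80834197 (plus) for Tyrp1, chr14:118052448-118052496 and chr14:118052366-118052421 (minus) for the farther and nearer Dct match, chr2:125068089-125068126 (plus) for Slc24a5 and chr8:123406995-123407061 (plus) for Mc1r. The match is a description of these letters and not a measured binding site. The hexamer was chosen for its known place in promoters of such genes, so the shares are no test of Mitf.
Tyr: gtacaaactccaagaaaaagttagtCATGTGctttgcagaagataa
Tyrp1: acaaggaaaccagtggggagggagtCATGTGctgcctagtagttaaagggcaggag
Dct, farther: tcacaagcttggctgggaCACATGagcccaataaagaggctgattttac
Dct, nearer: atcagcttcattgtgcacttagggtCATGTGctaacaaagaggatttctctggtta
Slc24a5: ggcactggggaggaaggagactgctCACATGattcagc
Mc1r: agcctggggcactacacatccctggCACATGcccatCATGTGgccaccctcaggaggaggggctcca

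Dct, the dopachrome tautomerase, had 5.0 and 5.95 in melanoma against 10.19, 9.98 and 10.19 in the proliferations, a 25.1-fold lower level in melanoma (difference -4.65, SE 0.25, limma adjusted p = 4.47e-06). Both melanoma arrays were far below all 3 proliferation arrays. Its level was 5.19 and 4.78 in Cdkn2a/Braf/Lkb1 melanoma and averaged 13.29 in sorted Cdkn2a/Braf cells at day 19. Tyrp1, the tyrosinase-related oxidase, had 5.08 and 5.77 in melanoma against 8.31, 8.39 and 8.48 in the proliferations (7.81-fold lower; difference -2.97, SE 0.18, limma adjusted p = 1.18e-05), again without overlap. Tyr, tyrosinase, which catalyses the limiting step of melanin formation, had 4.45 and 4.34 in melanoma against 6.58, 6.18 and 6.67 in the proliferations, and fell by 2.08 (SE 0.54, limma adjusted p = 0.0208).

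Melanosome matrix and transport genes were among those that fell. Mlana, a melanosomal membrane protein and melanoma antigen, had 6.49 and 6.98 in melanoma against 10.41, 10.09 and 10.24 in the proliferations (11.4-fold lower; difference -3.52, SE 0.18, limma adjusted p = 3.96e-06). Pmel, which forms the fibrils on which melanin is laid down, had 5.73 and 6.17 in melanoma against 8.01, 8.11 and 8.37 in the proliferations (4.64-fold lower; difference -2.21, SE 0.20, limma adjusted p = 0.000119). Neither gene's groups overlapped. Smaller decreases were those of Sytl2 (-1.97, SE 0.24) and Rab27a (-1.21, SE 0.21), which link melanosomes to transport, of Rab38 (-1.53, SE 0.28), which delivers enzymes to the melanosome, of the transporters Slc24a5 (-1.48, SE 0.21) and Slc45a2 (-1.14, SE 0.15), of the melanosomal glycoprotein Gpnmb (-1.68, SE 0.42) and of the melanocortin receptor Mc1r (-0.91, SE 0.20). Atp7a, the copper pump that loads tyrosinase, was the 1 gene that rose, with 8.70 and 8.72 in melanoma against 8.13, 7.89 and 7.84 in the proliferations (0.76, SE 0.14). Trpm1, a melanocyte channel gene and host of a microRNA, did not pass (-0.86, SE 0.31, limma adjusted p = 0.0781). The calls of Dct, Mlana, Tyrp1, Pmel, Sytl2 and Slc45a2 held under every alternative that measured them, and those of Rab27a, Rab38 and Slc24a5 under all but the fit with the sex of the array as a covariate. Calls lost when 1 array was left out, with the difference then found, were Tyr (-2.13), Gpnmb (-1.84) and Mc1r (-0.84) without melanoma replicate 1; Tyr (-2.03) and Gpnmb (-1.52) without melanoma replicate 2; Tyr (-2.03) without proliferation replicate 1; Gpnmb (-1.67) without proliferation replicate 2; Tyr (-1.98) without proliferation replicate 3. With sex as a covariate the calls of Tyr, Gpnmb and Mc1r ended, as did that of Atp7a after quantile normalization and that of Tyr after interquartile scaling or with a pseudocount of 16. Hair follicle markers, 24 of 25 of them lower in melanoma, moved with the pigment genes (summed intensity 1415 and 1390 in melanoma, against 11191, 10947 and 15142 in the proliferations), and since follicles hold pigment cells their part in the pigment result was not tested.

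**Figure D3:**
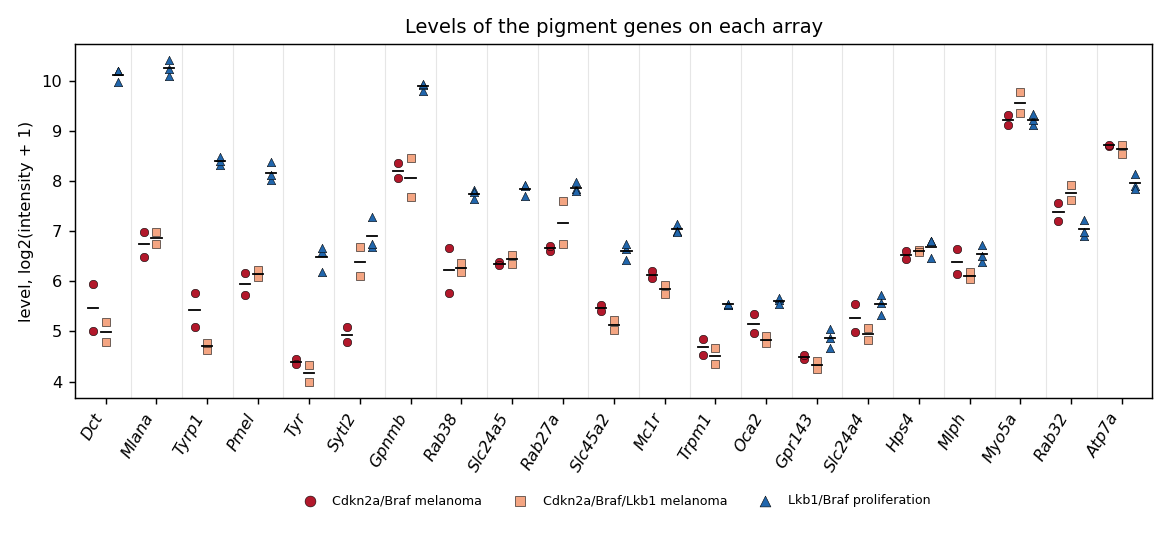
Level of the 21 pigment genes (log2(intensity + 1), vertical axis) on each array of Cdkn2a/Braf melanoma (circles), Cdkn2a/Braf/Lkb1 melanoma (squares) and Lkb1/Braf proliferation (triangles), ordered by difference, with group means as bars. Dct lies at 5.0 and 5.95 in Cdkn2a/Braf melanoma against 9.98 to 10.19 in the proliferations, and at the other end Atp7a lies higher in the melanoma.

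A joint list of melanocyte and neural crest transcription factors did not follow the pigment genes as a group, though its members Mitf and Lef1 fell. Of 13 lineage and neural crest factors, 6 rose and 2 fell (61.5% called, against 21.5% of all genes), with a median of 0.48. After quantile normalization 4 were higher and 3 lower with a median of 0.02, and after interquartile scaling 5 and 3 with a median of 0.12. Mitf had 6.74 and 6.94 in melanoma against 7.38, 7.44 and 7.37 in the proliferations and fell by 0.55 (SE 0.15, limma adjusted p = 0.029), without overlap, and a second probe set of Mitf at a dim level showed a difference of 0.02. Sox10, which activates Mitf, had 7.05 and 8.13 in melanoma against 7.43, 7.34 and 7.04 in the proliferations and did not pass (0.32, SE 0.33, limma adjusted p = 0.522). Its arrays overlapped, and the difference was -0.21 without melanoma replicate 2. Pax3, a neural crest factor upstream of Mitf, had 9.17 and 9.26 in melanoma against 7.04, 7.41 and 7.06 in the proliferations, 4.13-fold higher (difference 2.04, SE 0.27, limma adjusted p = 0.000685). Sox2, a factor of neural crest and Schwann cell precursors, had 7.88 and 8.73 in melanoma against 5.81, 5.95 and 5.57 in the proliferations, 5.76-fold higher (difference 2.53, SE 0.27, limma adjusted p = 0.000248). Both genes were far apart between the lesions on every array, and sorted Cdkn2a/Braf cells at day 19 averaged 11.12 for Pax3 and 5.39 for Sox2. Tfap2b, a factor of neural crest derivatives (1.54, SE 0.40), Tbx2, a repressor of cell cycle inhibitors (0.80, SE 0.17), and Foxd3, a neural crest repressor of pigment fate (0.49, SE 0.14), also rose, and Lef1, a WNT effector, fell by 1.03 (SE 0.33). The calls of Pax3 and Sox2 held under every alternative that measured them. With any 1 of the 5 arrays left out the call ended for Mitf (-0.65 to -0.45) and Lef1 (-1.16 to -0.92). Leaving out 1 array ended the calls, with the differences in brackets, of Tfap2b (1.67) and Foxd3 (0.53) without melanoma replicate 1; Tfap2b (1.41), Tbx2 (0.74) and Foxd3 (0.46) without melanoma replicate 2; Tfap2b (1.50) without proliferation replicate 1; Tfap2b (1.55) and Foxd3 (0.42) without proliferation replicate 2; Foxd3 (0.47) without proliferation replicate 3. The calls of Mitf, Tfap2b, Tbx2, Foxd3 and Lef1 ended with sex as a covariate, as did that of Tfap2b after quantile normalization, that of Lef1 after median centring, with a pseudocount of 16 or in a fit of the 7 tissue arrays alone, those of Mitf and Lef1 with trended and robust moderation and that of Mitf with the mean of probe sets.

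Of 16 receptor tyrosine kinase genes of melanocytes and melanoma, a list that includes a ligand and non-kinase receptors, 8 rose, 1 fell and 7 did not pass (56.2% called, against 21.5% of all genes), with a median of 0.93. Pdgfra, the PDGF receptor alpha, had 11.41 and 10.41 in melanoma against 8.67, 8.80 and 8.56 in the proliferations, 4.72-fold higher (difference 2.24, SE 0.34, limma adjusted p = 0.00169). Fgfr1 had 10.06 and 9.58 in melanoma against 8.26, 8.40 and 8.22 in the proliferations (1.53, SE 0.25), and Axl, a kinase of drug-tolerant melanoma cells, had 9.28 and 9.30 in melanoma against 8.17, 8.09 and 7.83 in the proliferations (1.26, SE 0.16). None of these 3 overlapped. Pdgfrb (1.36, SE 0.21), the collagen receptor Ddr2 (1.78, SE 0.25) and Epha2 (0.59, SE 0.19) rose as well. Kitl, the ligand of Kit, rose by 2.14 (SE 0.53), whereas Kit itself had 6.79 and 8.07 in melanoma against 7.19, 7.24 and 7.24 in the proliferations, with overlap, and did not pass (0.20, SE 0.43, limma adjusted p = 0.774; -0.44 without melanoma replicate 2). Met, the HGF receptor, had 9.33 and 7.57 in melanoma against 7.07, 6.95 and 7.01 in the proliferations and did not pass (1.44, SE 0.65, limma adjusted p = 0.144), with a difference of 0.56 without melanoma replicate 1 and 2.32 without replicate 2. Ngfr, the low-affinity neurotrophin receptor, fell by 0.53 (SE 0.12). Fibroblast markers, which include Pdgfra, summed to 19135 and 19425 in melanoma and 20947, 18903 and 18424 in the proliferations. Of 19 measured, 3 were higher and 2 lower (26.3% called, against 21.5% of all genes). The calls of Axl and Ddr2 held under every alternative that measured them, and those of Pdgfra, Fgfr1 and Pdgfrb under all but the fit with the sex of the array as a covariate. Any 1 array left out ended the call of Epha2 (0.46 to 0.73). The test was no longer passed after removal of 1 array by Kitl (2.24) and Ngfr (-0.49) without melanoma replicate 1; Kitl (2.04) without melanoma replicate 2; Kitl (2.08) without proliferation replicate 1; Kitl (2.07) without proliferation replicate 2. Under further settings, the calls of Epha2 and Ngfr ended with sex as a covariate, as did that of Epha2 after quantile normalization, after interquartile scaling or with trended and robust moderation.

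Markers of Schwann cells and nerve were mixed and depended on 1 array. Of 14 measured, 3 rose and 2 fell (35.7% called, against 21.5% of all genes). The median was 0.46, at -0.15 without melanoma replicate 2 and 1.00 without replicate 1. Cdh19, a cadherin of neural crest and Schwann cell precursors, had 7.71 and 10.29 in melanoma against 5.48, 5.38 and 5.76 in the proliferations, 11-fold higher (difference 3.46, SE 0.64, limma adjusted p = 0.00442), the higher value on replicate 2. Gap43, a growth cone protein, had 10.68 and 8.31 in melanoma against 6.82, 6.88 and 6.42 in the proliferations (2.79, SE 0.57), the higher value on replicate 1. Ncam1, the neural adhesion molecule, had 7.75 and 8.40 in melanoma against 6.63, 6.40 and 6.44 in the proliferations (1.59, SE 0.27). Egr2, a regulator of myelination that is also an immediate early gene, fell by 1.60 (SE 0.42), and the adhesion gene L1cam fell by 0.77 (SE 0.20). The call of Ncam1 held under every alternative that measured it, and those of Cdh19 and Gap43 under all but the fit with the sex of the array as a covariate. Dependence of the call on 1 array was found for Egr2 (-0.67) and L1cam (-0.69) without melanoma replicate 1; L1cam (-0.85) without melanoma replicate 2; Egr2 (-1.56) without proliferation replicate 1; Egr2 (-1.64) and L1cam (-0.76) without proliferation replicate 2; Egr2 (-1.60) and L1cam (-0.76) without proliferation replicate 3. Differences that kept their call but moved by over 1.5 times were Gap43 to 1.60 without melanoma replicate 1; Cdh19 to 2.17 and Egr2 to -2.53 without melanoma replicate 2. Elsewhere the calls of Egr2 and L1cam ended with sex as a covariate.

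Of 23 genes of MAPK output and feedback, a list that also holds pathway components such as Map2k1, Braf and Rasgrp1, 10 rose, 2 fell and 11 did not pass (52.2% called, against 21.5% of all genes), with a median of 0.81. Etv1, an ETS factor of this output, had 10.85 and 10.81 in melanoma against 7.32, 6.74 and 6.50 in the proliferations, 15.8-fold higher (difference 3.98, SE 0.82, limma adjusted p = 0.00779), and its second probe set differed by 4.19. The ERK phosphatase Dusp4 had 7.30 and 7.60 in melanoma against 5.15, 5.59 and 5.15 in the proliferations (2.16, SE 0.37), and Dusp6 rose by 0.94 (SE 0.27). None of these 3 genes overlapped between the lesions.

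The Sprouty and Spred genes, inhibitors of receptor and RAS signalling, are members of the same list. Spry4 had 8.67 and 8.54 in melanoma against 6.54, 6.83 and 6.07 in the proliferations, 4.38-fold higher (difference 2.13, SE 0.26, limma adjusted p = 0.000464). Spry2 had 8.92 and 8.44 in melanoma against 7.0, 6.73 and 6.84 in the proliferations (1.82, SE 0.18), Spred1 had 10.58 and 10.28 in melanoma against 8.83, 8.99 and 8.81 in the proliferations (1.55, SE 0.15), and Spry1 rose by 0.95 (SE 0.20). Ccnd1, cyclin D1, had 11.19 and 11.06 in melanoma against 8.97, 9.02 and 9.13 in the proliferations, 4.24-fold higher (difference 2.08, SE 0.16, limma adjusted p = 5.14e-05). Map2k1, the kinase between Raf and ERK, rose by 1.40 (SE 0.31), and Phlda1 by 0.86 (SE 0.17). Etv5 had 9.51 and 10.11 in melanoma against 7.81, 8.01 and 7.87 in the proliferations and did not pass in the shared fit (1.92, SE 0.78, limma adjusted p = 0.108). The spread behind this Etv5 test includes 9.22 and 5.51 in sorted Cdkn2a/Braf cells at day 50. The genes that fell were Rasgrp1, a RAS exchange factor of lymphocytes and keratinocytes (-0.78, SE 0.18), and the ephrin receptor Epha4 (-0.90, SE 0.21). The calls of Spry4, Spry2, Spred1 and Ccnd1 held under every alternative that measured them, and that of Dusp4 under all but the fit with the sex of the array as a covariate. With 1 array removed, the call ended for Etv1 (3.96), Map2k1 (1.33), Rasgrp1 (-0.71) and Epha4 (-0.54) without melanoma replicate 1; Dusp6 (0.64), Spry1 (0.82), Map2k1 (1.47) and Phlda1 (0.73) without melanoma replicate 2; Dusp6 (0.93) without proliferation replicate 1; Dusp6 (0.99) without proliferation replicate 2; Dusp6 (0.88) without proliferation replicate 3. For Etv1, Dusp6, Spry1, Map2k1, Phlda1, Rasgrp1 and Epha4 the calls ended with sex as a covariate, as did those of Dusp6, Map2k1 and Phlda1 after quantile normalization and those of Dusp6 and Phlda1 after interquartile scaling. The immediate early AP-1 list did not share this direction, with 2 of 20 higher and 3 lower (25% called, against 21.5% of all genes). Its median was 0.05, at -0.10 after quantile normalization and -0.03 after interquartile scaling. Of this list Jun rose by 1.51 (SE 0.16) and the nuclear receptor Nr4a2 by 0.94 (SE 0.20). The call of Jun held under every alternative that measured it. Nr4a2 was no longer called without melanoma replicate 2 (0.83). Apart from single arrays, the call of Nr4a2 ended with sex as a covariate.

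**Figure D4:**
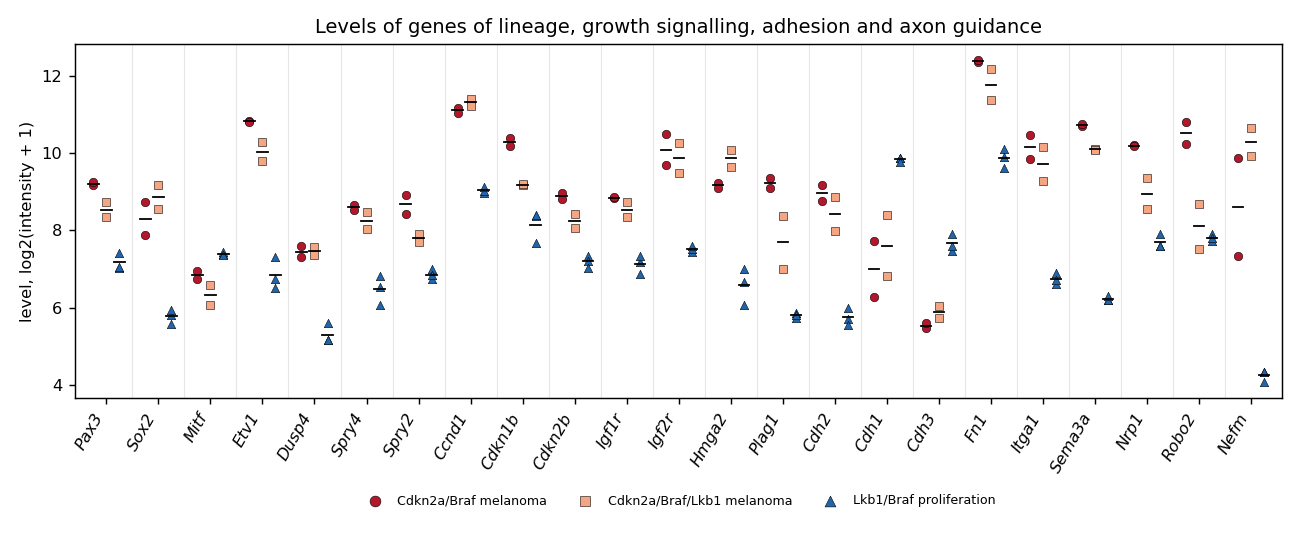
Level of 23 named genes (log2(intensity + 1), vertical axis) on each array of Cdkn2a/Braf melanoma (circles), Cdkn2a/Braf/Lkb1 melanoma (squares) and Lkb1/Braf proliferation (triangles), with group means as bars. Etv1 lies at 10.85 and 10.81 in Cdkn2a/Braf melanoma against 6.50 to 7.32 in the proliferations, and Mitf, Cdh1 and Cdh3 are the genes of this choice that are lower in the melanoma.

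Several inhibitors of cyclin-dependent kinases other than Cdkn2a were higher in melanoma, and 1 was lower. Of 16 genes for these inhibitors, D cyclins, their kinases and the RB family, 8 rose and 1 fell. The share called was 56.2%, against 21.5% of all genes, with a median of 0.46, and 5 rose after quantile normalization. Cdkn2b, the neighbour and relative of Cdkn2a, had 8.97 and 8.82 in melanoma against 7.35, 7.22 and 7.04 in the proliferations, 3.22-fold higher (difference 1.69, SE 0.18, limma adjusted p = 0.000227). Cdkn1b, an inhibitor of cyclin E and A kinases, had 10.20 and 10.39 in melanoma against 8.37, 7.68 and 8.40 in the proliferations (4.42-fold higher; difference 2.15, SE 0.20, limma adjusted p = 0.000113), but its other probe set averaged 8.29 in both lesions with a difference of 0.00, so the probe sets of Cdkn1b disagree. Cdkn2c rose by 1.02 (SE 0.21), and Cdkn1c, a growth-restraining inhibitor of imprinted expression, fell by 0.96 (SE 0.16). Neither overlapped. Of the kinases and targets, Cdk6 (1.14, SE 0.28), E2f1 (0.60, SE 0.11) and Rbl2 (0.88, SE 0.23) rose, and Cdk4 rose by 0.48 (SE 0.15) but had a difference of -0.17 after interquartile scaling. The calls of Cdkn2b, Cdkn1b and Cdkn1c held under every alternative that measured them, and that of E2f1 under all but the fit with the sex of the array as a covariate. A single array decided the call of Cdkn2c (0.88), Cdk6 (1.09), Rbl2 (0.75) and Cdk4 (0.33) without melanoma replicate 1; Cdk6 (1.18), Rbl2 (1.02) and Cdk4 (0.63) without melanoma replicate 2; Cdk6 (1.04) and Cdk4 (0.39) without proliferation replicate 1; Rbl2 (0.90) without proliferation replicate 2; Rbl2 (0.82) and Cdk4 (0.50) without proliferation replicate 3. In other fits the calls of Cdkn2c, Cdk6, Rbl2 and Cdk4 ended with sex as a covariate, as did those of Cdk6, Rbl2 and Cdk4 after quantile normalization and that of Cdk4 in a fit of the 5 compared arrays alone.

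Few genes of mitosis and DNA replication passed the test. Of 28 mitosis genes 1 fell and 0 rose (3.57% called, against 21.5% of all genes), and of 26 replication genes limma called 0, with 2 at an unadjusted p under 0.05. The mitosis median was -0.22, at -0.82 without melanoma replicate 1 and 0.33 without replicate 2, and the list's mean level was 7.98 and 6.84 on the melanoma arrays and 7.52, 7.49 and 7.87 on the proliferation arrays. The replication median was -0.27, at 0.01 without melanoma replicate 2. Mki67, the nuclear antigen of cycling cells, had 7.98 and 6.62 in melanoma against 8.59, 8.61 and 8.94 in the proliferations and fell by 1.41 (SE 0.37, limma adjusted p = 0.023), without overlap. Mki67 was no longer called without melanoma replicate 2 (-0.74), proliferation replicate 1 (-1.48), proliferation replicate 2 (-1.46) or proliferation replicate 3 (-1.30). Beside this, the call of Mki67 ended with sex as a covariate. In bulk tissue cycling hair and epidermal cells are counted with the melanocytic ones, and their part was not tested. Of 19 growth arrest and senescence genes 5 rose and 0 fell (26.3% called, against 21.5% of all genes), with a median of 0.27, among them Glb1, the lysosomal galactosidase (1.06, SE 0.27), and Gadd45a, a stress sensor (0.75, SE 0.19), beside Cdkn2b, Cdkn2c and Rbl2. On removal of 1 array, no call remained for Glb1 (0.96) without melanoma replicate 1; Glb1 (1.16) and Gadd45a (0.56) without melanoma replicate 2; Glb1 (0.99) and Gadd45a (0.75) without proliferation replicate 1; Gadd45a (0.68) without proliferation replicate 2. With sex as a covariate the calls of Glb1 and Gadd45a ended, as did that of Gadd45a after quantile normalization or after interquartile scaling.

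Transcripts of p53 targets were called in both directions. Of 16 genes 2 rose and 2 fell, near the share over all genes (25% against 21.5%), with a median of 0.09 that was -0.07 after interquartile scaling. The polo-like kinase Plk2 had 8.79 and 9.44 in melanoma against 7.70, 7.72 and 7.75 in the proliferations (1.39, SE 0.22), and Phlda3, an AKT inhibitor, rose by 0.84 (SE 0.21). Perp, a p53 target that is also a desmosomal protein of epidermis, had 6.68 and 9.52 in melanoma against 11.16, 10.98 and 11.22 in the proliferations (-3.02, SE 0.66), and it followed the keratinocyte markers on these arrays. Sesn2, a stress-induced inhibitor of mTORC1, fell by 0.50 (SE 0.14). The calls of Plk2 and Perp held under all but the fit with the sex of the array as a covariate. Fits that lacked 1 of the 5 arrays did not call Sesn2 (-0.56) without melanoma replicate 1; Phlda3 (0.56) and Sesn2 (-0.45) without melanoma replicate 2; Phlda3 (0.82) and Sesn2 (-0.43) without proliferation replicate 1; Phlda3 (0.79) and Sesn2 (-0.51) without proliferation replicate 3. The call stayed but the difference moved by over 1.5 times for Perp to -1.60 without melanoma replicate 1. The calls of Phlda3 and Sesn2 ended with sex as a covariate or after quantile normalization, as did that of Sesn2 after interquartile scaling or after median centring.

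Transcripts of the kinases downstream of Lkb1 passed the test about as often as all genes. Of 24 genes for the LKB1 complex, AMPK subunits and AMPK-related kinases 2 rose and 3 fell (20.8% called, against 21.5% of all genes). The median was 0.02, at -0.07 after quantile normalization. Prkaa2, a catalytic AMPK subunit, had 4.72 and 4.80 in melanoma against 5.20, 6.35 and 5.98 in the proliferations and fell by 1.08 (SE 0.28, limma adjusted p = 0.0207). Skeletal muscle markers, which summed to 5185 and 1463 in melanoma and 3420, 30087 and 27671 in the proliferations, were highest on the same 2 arrays as Prkaa2, proliferation replicates 2 and 3, and their part in the lower Prkaa2 was not tested. Prkab1, a regulatory AMPK subunit, had 8.67 and 8.55 in melanoma against 7.57, 7.56 and 7.77 in the proliferations (0.98, SE 0.23), Sik3 rose by 0.72 (SE 0.15), and the polarity kinases Mark2 and Mark4 fell by 0.51 (SE 0.12) and 0.47 (SE 0.12). Of 23 mTOR complex and TSC genes 3 rose, Mtor (0.52, SE 0.14), its activator Rheb (0.86, SE 0.18) and its inhibitor Deptor (0.63, SE 0.20). In this list 2 fell, Sesn2 and the inhibitor Akt1s1 (-0.41, SE 0.11), with a median of 0.29. The share called was 21.7%, against 21.5% of all genes. Among 19 CREB and CRTC target genes, which SIK kinases restrain, 1 rose and 0 fell (5.26% called, against 21.5% of all genes). No fit that lacked 1 of the 5 arrays called Deptor (0.42 to 0.85). Calls lost when 1 array was left out, with the difference then found, were Prkaa2 (-1.04), Prkab1 (0.92), Sik3 (0.51), Mark2 (-0.38), Mark4 (-0.36), Mtor (0.48), Rheb (0.84) and Akt1s1 (-0.41) without melanoma replicate 1; Prkaa2 (-1.12), Prkab1 (1.04), Mtor (0.55) and Akt1s1 (-0.40) without melanoma replicate 2; Mtor (0.43) without proliferation replicate 1; Prkaa2 (-0.83), Mark4 (-0.41) and Akt1s1 (-0.34) without proliferation replicate 2; Prkaa2 (-1.01) without proliferation replicate 3. Under further settings, the calls of Prkaa2, Prkab1, Sik3, Mark2, Mark4, Mtor, Deptor and Akt1s1 ended with sex as a covariate, as did those of Prkaa2, Prkab1, Sik3, Mtor, Rheb and Deptor after quantile normalization, those of Prkaa2, Prkab1, Rheb and Deptor after interquartile scaling, that of Akt1s1 after median centring and those of Deptor and Akt1s1 with trended and robust moderation.

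Of 21 IGF, PI3K and AKT genes 8 rose, 0 fell and 13 did not pass (38.1% called, against 21.5% of all genes), with a median of 0.71, and 5 rose after quantile normalization or interquartile scaling. Igf2r, which clears IGF2 and carries lysosomal enzymes, had 10.51 and 9.69 in melanoma against 7.44, 7.51 and 7.61 in the proliferations, 5.98-fold higher (difference 2.58, SE 0.27, limma adjusted p = 0.000239). Igf1r, the signalling receptor, had 8.83 and 8.86 in melanoma against 6.86, 7.18 and 7.33 in the proliferations (1.72, SE 0.27), and Irs1, its adaptor, had 9.74 and 9.56 in melanoma against 7.81, 8.0 and 8.36 in the proliferations (1.60, SE 0.26). The groups of all 3 were apart. Insr, the insulin receptor (1.34, SE 0.24), the AKT phosphatase Phlpp1 (1.32, SE 0.15), the PI3K subunits Pik3ca (1.25, SE 0.38) and Pik3r1 (0.71, SE 0.14) and the adaptor Grb10 (0.96, SE 0.24) rose too. Among 8 IGF binding proteins Igfbp3 had 11.43 and 10.63 in melanoma against 8.80, 8.61 and 8.57 in the proliferations, 5.19-fold higher (difference 2.38, SE 0.42, limma adjusted p = 0.00363), Igfbp4 rose by 1.62 (SE 0.18) and Igfbp2 fell by 1.02 (SE 0.13), while Igfbp5 did not pass (-1.84, SE 0.64, limma adjusted p = 0.0664; -1.19 without melanoma replicate 1). The calls of Igf2r, Phlpp1, Igfbp4 and Igfbp2 held under every alternative that measured them, and those of Igf1r, Irs1 and Igfbp3 under all but the fit with the sex of the array as a covariate. Each of the 5 arrays was needed for the call of Pik3ca (1.07 to 1.43). Grb10 was no longer called without melanoma replicate 1 (0.89), melanoma replicate 2 (1.03), proliferation replicate 1 (0.95) or proliferation replicate 2 (0.95). Elsewhere the calls of Pik3ca, Pik3r1 and Grb10 ended with sex as a covariate or after quantile normalization, as did those of Insr, Pik3ca and Pik3r1 after interquartile scaling.

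Of 14 oncofetal and let-7 target genes 2 rose and 0 fell (14.3% called, against 21.5% of all genes), and both were far apart. Hmga2, a chromatin protein of embryonic cells, had 9.24 and 9.10 in melanoma against 6.99, 6.66 and 6.08 in the proliferations, 6.04-fold higher (difference 2.59, SE 0.26, limma adjusted p = 0.000195). Plag1, a zinc finger activator of Igf2, had 9.36 and 9.11 in melanoma against 5.72, 5.87 and 5.80 in the proliferations, 10.8-fold higher (difference 3.44, SE 0.43, limma adjusted p = 0.000546). Their levels in Cdkn2a/Braf/Lkb1 melanoma were 9.65 and 10.09 for Hmga2 and 8.37 and 7.01 for Plag1. The calls of Hmga2 and Plag1 held under every alternative that measured them.

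Of 21 genes of the cadherin and EMT list 11 rose and 3 fell (66.7% called, against 21.5% of all genes). The median was 0.54. Cdh2, N-cadherin, had 8.76 and 9.18 in melanoma against 5.71, 5.55 and 5.99 in the proliferations, 9.33-fold higher (difference 3.22, SE 0.33, limma adjusted p = 0.000191). Cdh1, E-cadherin, had 6.28 and 7.74 in melanoma against 9.88, 9.89 and 9.77 in the proliferations, 7.14-fold lower (difference -2.84, SE 0.46, limma adjusted p = 0.00222). Cdh3, P-cadherin, had 5.47 and 5.60 in melanoma against 7.48, 7.60 and 7.92 in the proliferations, 4.39-fold lower (difference -2.14, SE 0.16, limma adjusted p = 4.03e-05). No group overlapped for these 3 cadherins, and of the melanoma arrays replicate 2, which held more keratinocyte signal, was the higher for Cdh1. Cdh11 (2.40, SE 0.30) and Cdh6 (2.23, SE 0.34) rose.

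Fibronectin, Fn1, had 12.38 and 12.42 in melanoma against 10.11, 9.91 and 9.62 in the proliferations, 5.74-fold higher (difference 2.52, SE 0.45, limma adjusted p = 0.00382). The transcription factor Zeb1, which represses Cdh1, had 9.88 and 9.68 in melanoma against 8.03, 8.10 and 8.18 in the proliferations (1.68, SE 0.22), and Twist1 had 9.11 and 9.05 in melanoma against 7.34, 7.17 and 7.38 in the proliferations (1.78, SE 0.20). Both were apart on all arrays. Tenascin C, Tnc (2.15, SE 0.23), Tgfb2 (1.79, SE 0.37) and Tgfb3 (1.41, SE 0.41) rose, and the epithelial adhesion gene Epcam fell by 2.49 (SE 0.49). The calls of Cdh2, Cdh3, Cdh11, Cdh6, Zeb1, Twist1 and Tnc held under every alternative that measured them, and those of Cdh1 and Fn1 under all but the fit with the sex of the array as a covariate. With any 1 of the 5 arrays left out the call ended for Tgfb3 (1.37 to 1.44). Leaving out 1 array ended the calls, with the differences in brackets, of Tgfb2 (1.65) and Epcam (-1.74) without melanoma replicate 1. For Tgfb2, Tgfb3 and Epcam the calls ended with sex as a covariate. Keratinocyte markers moved with the epithelial genes, 18 of 26 lower and 0 higher, at the sums given above, and their part in the lower Cdh1 and Epcam was not tested.

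The precursors of microRNAs that restrain Zeb1 were among the lower genes. Of 296 microRNA precursor genes measured 57 fell and 0 rose (19.3% lower, against 8.88% of all genes), with a median of -0.18 that was 0.17, with 86 higher and 36 lower, after interquartile scaling. The mature sequences of 3 epithelial microRNAs that target Zeb1 are given from RefSeq (GRCm38.p6), with the seed, bases 2 to 8, in capitals. They lie at chr1:193507503-193507524 for miR-205-5p, chr4:156055685-156055706 for miR-200b-3p and chr6:124718324-124718346 for miR-200c-3p, all on the minus strand, and the last 2 share a seed.
miR-205-5p: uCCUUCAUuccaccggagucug
miR-200b-3p: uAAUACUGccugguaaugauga
miR-200c-3p: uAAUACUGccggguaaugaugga

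The array's probe sets cover the precursor or host transcript and not the mature RNA, and the levels were dim. Mir205 had 4.33 and 4.72 in melanoma against 5.87, 6.05 and 5.58 in the proliferations and fell by 1.31 (SE 0.21, limma adjusted p = 0.0023). Mir200b had 4.33 and 3.93 in melanoma against 4.95, 4.82 and 4.67 in the proliferations (-0.68, SE 0.16), and Mir200c had 5.83 and 5.48 in melanoma against 6.42, 6.34 and 6.42 in the proliferations (-0.74, SE 0.14). None of the 3 overlapped. The call of Mir205 held under every alternative that measured it. The test was no longer passed after removal of 1 array by Mir200b (-0.48) and Mir200c (-0.56) without melanoma replicate 2. Apart from single arrays, the calls of Mir200b and Mir200c ended with sex as a covariate, as did that of Mir200b after interquartile scaling. Keratinocytes, whose markers were lower in melanoma, also make these microRNAs, and their part was not tested.

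Of 27 integrin and laminin genes 13 rose and 3 fell (59.3% called, against 21.5% of all genes), with a median of 0.81. Itga1, a collagen receptor subunit, had 10.47 and 9.86 in melanoma against 6.90, 6.60 and 6.72 in the proliferations, 10.7-fold higher (difference 3.42, SE 0.37, limma adjusted p = 0.000262). Itgav, a subunit of fibronectin and vitronectin receptors, had 9.96 and 9.71 in melanoma against 8.19, 8.20 and 8.04 in the proliferations (1.69, SE 0.20), and their common partner Itgb1 had 11.24 and 10.90 in melanoma against 9.88, 9.84 and 9.91 in the proliferations (1.20, SE 0.13). All 3 were apart. Itga8 (2.69, SE 0.61), Itga4 (1.78, SE 0.50), Itgb5 (1.76, SE 0.31) and the laminin chains Lama2 (2.22, SE 0.50) and Lamb1 (1.57, SE 0.29) rose. Itgb6, an integrin subunit of epithelial cells whose receptor binds fibronectin and latent TGF-beta, fell by 1.45 (SE 0.18), and the chains of epithelial basement membrane laminin Lama3 (-0.76, SE 0.13) and Lamb3 (-0.84, SE 0.19) fell. The calls of Itga1, Itgav, Itgb1 and Itgb6 held under every alternative that measured them, and those of Itgb5, Lamb1 and Lama3 under all but the fit with the sex of the array as a covariate. Any 1 array left out ended the call of Itga4 (1.46 to 2.11). Dependence of the call on 1 array was found for Itga8 (2.57) and Lama2 (2.21) without melanoma replicate 1; Itga8 (2.81), Lama2 (2.22) and Lamb3 (-0.74) without melanoma replicate 2. In other fits the calls of Itga8, Itga4, Lama2 and Lamb3 ended with sex as a covariate.

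Of 23 metalloproteinase and urokinase system genes 8 rose and 0 fell (34.8% called, against 21.5% of all genes). The median was 0.73, and several of these genes are inhibitors. Timp1, a metalloproteinase inhibitor, had 10.10 and 9.69 in melanoma against 8.05, 7.21 and 6.38 in the proliferations, 6.41-fold higher (difference 2.68, SE 0.42, limma adjusted p = 0.00178), and its relatives Timp3 (2.41, SE 0.53) and Timp2 (1.26, SE 0.19) rose. Mmp16, a membrane-bound metalloproteinase, had 8.37 and 9.92 in melanoma against 6.28, 6.74 and 6.65 in the proliferations (2.59, SE 0.47). The plasminogen activators Plat (1.86, SE 0.30) and Plau (1.83, SE 0.47) and the proteases Mmp19 (1.16, SE 0.29) and Adamts1 (1.24, SE 0.29) rose. The call of Timp2 held under every alternative that measured it, and those of Timp1, Mmp16 and Plat under all but the fit with the sex of the array as a covariate. With 1 array removed, the call ended for Timp3 (2.51), Plau (1.00), Mmp19 (1.12) and Adamts1 (1.24) without melanoma replicate 1; Timp3 (2.30), Mmp19 (1.21) and Adamts1 (1.24) without melanoma replicate 2; Plau (1.86) and Mmp19 (1.13) without proliferation replicate 1; Plau (1.82) without proliferation replicate 2; Plau (1.82) without proliferation replicate 3. Beside this, the calls of Timp3, Plau, Mmp19 and Adamts1 ended with sex as a covariate, as did that of Adamts1 after quantile normalization. Collagen genes passed the test in 20.8% of cases, against 21.5% of all genes, with 4 of 24 higher and 1 lower. Their median was 0.18, at -0.06 after quantile normalization. Col8a1, a short-chain collagen, rose by 2.58 (SE 0.48), and Col17a1, a hemidesmosome collagen of basal keratinocytes, fell by 1.39 (SE 0.25). The call of Col17a1 held under all but the fit with the sex of the array as a covariate. Col8a1 was no longer called without melanoma replicate 2 (2.13). With sex as a covariate the call of Col8a1 ended.

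Of 32 semaphorin, plexin, neuropilin, SLIT, ROBO, netrin and ephrin system genes 11 rose, 3 fell and 18 did not pass. The share called was 43.8%, against 21.5% of all genes, with a median of 0.39. Sema3a, a secreted repellent of growing axons and of neural crest cells, had 10.70 and 10.77 in melanoma against 6.19, 6.19 and 6.31 in the proliferations, 22.6-fold higher (difference 4.50, SE 0.21, limma adjusted p = 3.22e-06). Its receptor Nrp1 had 10.22 and 10.18 in melanoma against 7.90, 7.59 and 7.59 in the proliferations, 5.69-fold higher (difference 2.51, SE 0.24, limma adjusted p = 0.00014). Slit2, another repellent, had 9.95 and 9.91 in melanoma against 7.55, 7.52 and 7.40 in the proliferations, 5.44-fold higher (difference 2.44, SE 0.23, limma adjusted p = 0.000127). All 3 were apart on every array.

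Robo2, a SLIT receptor, had 10.24 and 10.81 in melanoma against 7.90, 7.74 and 7.81 in the proliferations (2.71, SE 0.29), and Epha3, an ephrin receptor, had 8.76 and 8.36 in melanoma against 5.19, 4.97 and 4.82 in the proliferations (3.56, SE 0.39). Sema3a, Nrp1, Slit2 and Robo2, ligand and receptor genes of the SEMA3A and SLIT systems, are picked from the list. Of its 32 members 24 had no overlap between the lesions, 16 higher and 8 lower, against 58% of all genes. Nrp2 (2.04, SE 0.21), Sema6d (2.10, SE 0.18), Sema5a (1.72, SE 0.41) and Slit3 (1.63, SE 0.21) rose, and Sema3e (-1.26, SE 0.30) and the plexin Plxnb1 (-0.74, SE 0.17) fell. The calls of Sema3a, Nrp1, Slit2, Robo2, Epha3, Nrp2, Sema6d and Slit3 held under every alternative that measured them. A single array decided the call of Sema5a (1.25), Sema3e (-0.96) and Plxnb1 (-0.66) without melanoma replicate 1; Sema3e (-1.13) and Plxnb1 (-0.68) without proliferation replicate 2. The calls of Sema5a and Sema3e ended with sex as a covariate. In sorted Cdkn2a/Braf cells at day 19 the levels averaged 6.32 for Sema3a and 6.37 for Slit2.

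A few neuronal genes were high in melanoma, while the median of the list lay near 0. Of 28 genes 5 rose and 2 fell (25% called, against 21.5% of all genes). The median was -0.03, at 0.09 after quantile normalization and 0.25 after interquartile scaling. Nefm, a neurofilament subunit of axons, had 9.88 and 7.33 in melanoma against 4.34, 4.34 and 4.07 in the proliferations, 20.4-fold higher (difference 4.35, SE 0.55, limma adjusted p = 0.000624). Nefl, its partner, had 9.08 and 5.94 in melanoma against 4.74, 4.33 and 4.82 in the proliferations (2.88, SE 0.70), and both were higher on melanoma replicate 1 than on replicate 2. Nrcam, an adhesion molecule of axons, had 9.16 and 9.03 in melanoma against 6.44, 6.95 and 6.21 in the proliferations (2.56, SE 0.39). Negr1 (1.02, SE 0.15) rose, and the neuropeptide gene Npy (-0.81, SE 0.25) and Cntn1 (-0.73, SE 0.19) fell. The calls of Nefm and Nrcam held under every alternative that measured them, and that of Negr1 under all but the fit with the sex of the array as a covariate. No fit that lacked 1 of the 5 arrays called Npy (-0.82 to -0.79). On removal of 1 array, no call remained for Nefl (1.31) and Cntn1 (-0.69) without melanoma replicate 1; Cntn1 (-0.77) without melanoma replicate 2; Cntn1 (-0.71) without proliferation replicate 1; Nefl (2.73) and Cntn1 (-0.62) without proliferation replicate 2. Differences that kept their call but moved by over 1.5 times were Nefl to 4.45 without melanoma replicate 2. Under further settings, the calls of Nefl, Npy and Cntn1 ended with sex as a covariate, as did that of Cntn1 after quantile normalization or after interquartile scaling and that of Npy after median centring, with trended and robust moderation or in a fit of the 7 tissue arrays alone.

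The 15 largest increases also held genes outside these groups, each apart on every array because the naming rule asked for that. Tac1, the precursor of substance P, had 9.77 and 6.85 in melanoma against 3.51, 3.47 and 3.38 in the proliferations, 29-fold higher (difference 4.86, SE 0.61, limma adjusted p = 0.000589), with melanoma replicate 1 the higher. Crabp1, a retinoic acid binding protein of neural crest, had 13.25 and 12.89 in melanoma against 9.41, 9.47 and 8.91 in the proliferations, 14-fold higher (difference 3.80, SE 0.17, limma adjusted p = 2.81e-06). Bmp2, a ligand of the BMP receptors, had 10.33 and 9.87 in melanoma against 6.20, 6.65 and 6.66 in the proliferations, 12.1-fold higher (difference 3.60, SE 0.63, limma adjusted p = 0.00323). In Cdkn2a/Braf/Lkb1 melanoma Tac1 had 9.12 and 8.68, Crabp1 13.23 and 13.22 and Bmp2 10.44 and 9.50.

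Dmp1, a phosphoprotein of bone matrix, had 9.94 and 9.75 in melanoma against 5.51, 5.80 and 5.34 in the proliferations, 19.6-fold higher (difference 4.30, SE 0.33, limma adjusted p = 4.48e-05), and 6.93 and 5.48 in Cdkn2a/Braf/Lkb1 melanoma. Cp, the copper-carrying ferroxidase ceruloplasmin, had 11.35 and 11.41 in melanoma against 7.40, 7.43 and 7.51 in the proliferations, 15.2-fold higher (difference 3.93, SE 0.52, limma adjusted p = 0.00073). Prkg2, a cGMP-dependent kinase, differed by 4.17 (SE 0.36) and by 0.95 on its other probe set, and the remaining genes were Hs3st3a1, a heparan sulphate sulfotransferase (4.03, SE 0.30), Aspa, which splits N-acetylaspartate (3.98, SE 0.31), Amigo2, a neural adhesion protein (3.73, SE 0.29), Aox3, an aldehyde oxidase (3.67, SE 0.47), and Lrrc34 (3.74, SE 1.15), beside Sema3a, Nefm, Etv1 and the Y-linked Eif2s3y. The calls of Tac1, Crabp1, Bmp2, Dmp1, Cp, Prkg2, Hs3st3a1, Aspa, Amigo2 and Aox3 held under every alternative that measured them. Each of the 5 arrays was needed for the call of Lrrc34 (2.71 to 4.78). Elsewhere the call of Lrrc34 ended with sex as a covariate, after quantile normalization or with a pseudocount of 16.

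Among the 15 largest decreases 1 gene differed from the others in its pattern. AI506816, named by its clone symbol, had 3.65 and 4.40 in melanoma against 10.02, 9.75 and 10.31 in the proliferations, 63.7-fold lower (difference -5.99, SE 0.36, limma adjusted p = 1.15e-05). It had 10.82 and 11.03 in Cdkn2a/Braf/Lkb1 melanoma, and averages of 3.65, 4.05 and 3.92 in the sorted Cdkn2a/Braf cells at day 19, at day 50 and in Cdkn2a-only cells. The levels were thus high in the 2 groups whose label names Lkb1 and low in the other 4. The call of AI506816 held under every alternative that measured it. Apart from Xist and the pigment gene Dct, the other decreases were genes of hair, epidermis and fat.

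Markers of the hair follicle and shaft were nearly all lower in melanoma, 24 of 25 with 0 higher. The share called was 96%, against 21.5% of all genes, with a median of -1.71. Krt25, a keratin of the inner root sheath, had 5.24 and 5.09 in melanoma against 10.58, 10.53 and 11.14 in the proliferations, 48-fold lower (difference -5.58, SE 0.54, limma adjusted p = 0.000154). Tchh, trichohyalin, had 5.67 and 6.06 in melanoma against 11.17, 11.33 and 11.44 in the proliferations, 43.8-fold lower (difference -5.45, SE 0.42, limma adjusted p = 4.56e-05). The root sheath keratins Krt27 (-4.92, SE 0.36) and Krt71 (-4.91, SE 0.48), the shaft proteins Krtap6-2 (-4.89, SE 0.19) and Krtap8-1 (-4.40, SE 0.31), and Krtap21-1 (-4.23, SE 0.42), which is outside the list, fell alike. The 2 melanoma arrays were close to each other here, with sums of 1415 and 1390 against 11191, 10947 and 15142 in the proliferations. The calls of Krt25, Tchh, Krt27, Krt71, Krtap6-2, Krtap8-1 and Krtap21-1 held under every alternative that measured them.

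Keratinocyte markers were lower too, 18 of 26 with 0 higher (69.2% called, against 21.5% of all genes). Their median was -2.87, at -4.38 without melanoma replicate 2 and -1.42 without replicate 1. Krt5, a keratin of basal cells, had 5.37 and 9.47 in melanoma against 11.76, 11.75 and 11.68 in the proliferations (-4.31, SE 0.93), and its partner Krt14 had 5.51 and 9.72 in melanoma against 11.86, 11.78 and 11.72 in the proliferations (-4.18, SE 0.94). Trp63, the transcription factor of stratified epithelium, had 6.71 and 7.60 in melanoma against 10.08, 10.14 and 10.12 in the proliferations (-2.95, SE 0.35). Melanoma replicate 2 lay between replicate 1 and the proliferations for all 3. Krt77 (-4.64, SE 1.08), Krt15 (-4.07, SE 0.62), Dsp, desmoplakin (-3.67, SE 0.80), and Skint9, a gene of the epidermal Skint family (-4.94, SE 0.18), fell as well. The calls of Trp63 and Skint9 held under every alternative that measured them, and those of Krt5, Krt14, Krt15 and Dsp under all but the fit with the sex of the array as a covariate. Krt77 was no longer called without melanoma replicate 1 (-2.97). The call stayed but the difference moved by over 1.5 times for Krt5 to -2.26, Krt14 to -2.07 and Dsp to -1.76 without melanoma replicate 1; Krt14 to -6.28 and Dsp to -5.58 without melanoma replicate 2. For Krt77 the call ended with sex as a covariate.

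**Figure D5:**
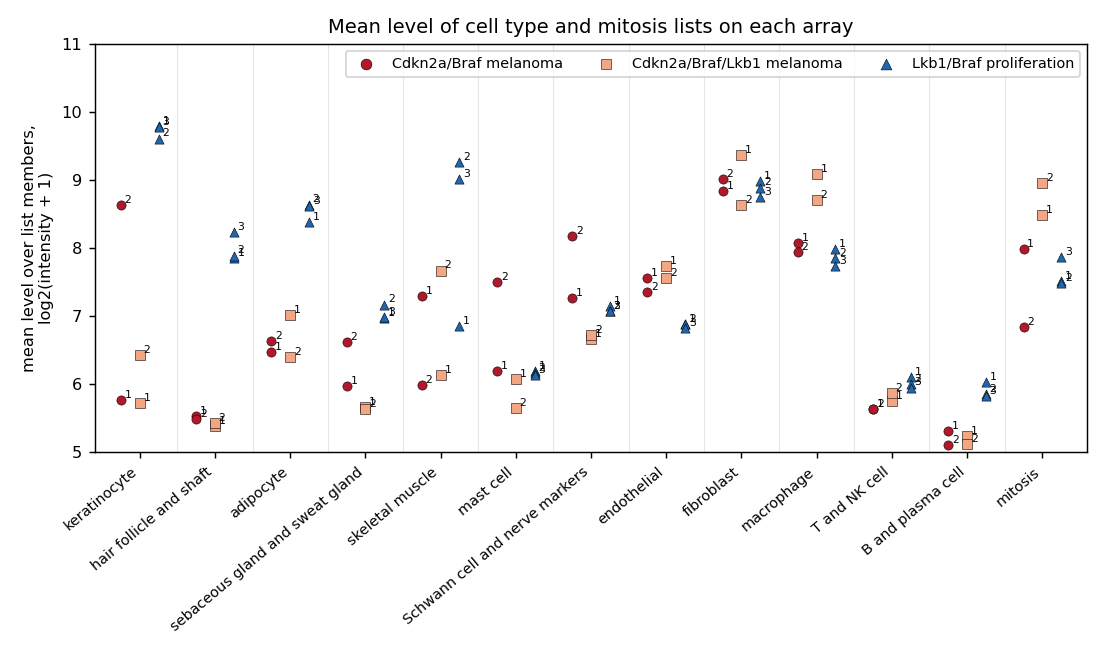
Mean level over the members of 12 cell type lists and the mitosis list (log2(intensity + 1), vertical axis) on each array, with circles for Cdkn2a/Braf melanoma, squares for Cdkn2a/Braf/Lkb1 melanoma and triangles for Lkb1/Braf proliferation, and replicate numbers beside the points. Keratinocyte markers lie at 5.77 and 8.63 in Cdkn2a/Braf melanoma against 9.61 to 9.80 in the proliferations, and the muscle level of proliferation replicate 1 lies apart from replicates 2 and 3.

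Adipocyte markers fell in 11 of 14 cases with 0 higher (78.6% called, against 21.5% of all genes). Their median was -1.61, with sums of 1618 and 2059 in melanoma against 10163, 13275 and 13775 in the proliferations. Adipoq, adiponectin, had 5.92 and 6.13 in melanoma against 10.87, 11.14 and 11.39 in the proliferations, 34.5-fold lower (difference -5.11, SE 0.56, limma adjusted p = 0.000263), and Car3, a carbonic anhydrase of fat and muscle, had 7.44 and 6.83 in melanoma against 11.42, 12.13 and 12.02 in the proliferations (-4.72, SE 0.35). Fabp4, the fatty acid carrier (-2.21, SE 0.27), Retn, resistin (-2.78, SE 0.24), Lpl, lipoprotein lipase (-2.18, SE 0.41), and Lep, leptin (-1.23, SE 0.20), fell. All 14 were apart between the lesions, as were 58% of all genes. Sebaceous and sweat gland markers fell in 6 of 13 cases and rose in 1 (53.8% called, against 21.5% of all genes). Their median was -0.80. Far2, a fatty acyl reductase of sebum synthesis, fell by 2.18 (SE 0.62), and Prdm1, a repressor that many other cells also express, rose by 2.09 (SE 0.29). The calls of Adipoq, Car3, Fabp4, Retn and Prdm1 held under every alternative that measured them, and those of Lpl and Lep under all but the fit with the sex of the array as a covariate. Far2 was no longer called without melanoma replicate 1 (-0.70), proliferation replicate 1 (-2.19), proliferation replicate 2 (-2.15) or proliferation replicate 3 (-2.19). Differences that kept their call but moved by over 1.5 times were Far2 to -3.65 without melanoma replicate 2. Apart from single arrays, the call of Far2 ended with sex as a covariate or in a fit of the 5 compared arrays alone.

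Skeletal muscle markers fell in 5 of 21 cases (23.8% called, against 21.5% of all genes) with a median of -1.97, but the proliferation arrays differed among themselves. Myh4, a fast myosin, had 6.90 and 5.53 in melanoma against 7.02, 11.19 and 10.96 in the proliferations (-3.51, SE 1.11). Without proliferation replicate 1 the list had 15 lower members and a median of -2.94, and without replicate 2 it had 0 lower members. Myh4 was no longer called without melanoma replicate 1 (-4.19), melanoma replicate 2 (-2.82), proliferation replicate 2 (-2.78) or proliferation replicate 3 (-2.89). In other fits the call of Myh4 ended with sex as a covariate, after quantile normalization, after median centring, with a pseudocount of 16, in a fit of the 5 compared arrays alone, in a fit of the 7 tissue arrays alone or with array weights.

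Genes of sterol and fatty acid synthesis were lower in melanoma, 12 of 18 with 1 higher. The share called was 72.2%, against 21.5% of all genes, with a median of -0.77. Hmgcs1, which commits acetyl units to sterol synthesis, had 8.17 and 8.39 in melanoma against 9.56, 9.61 and 9.69 in the proliferations, 2.54-fold lower (difference -1.34, SE 0.21, limma adjusted p = 0.00184). Srebf2, the transcription factor of this pathway, had 7.19 and 7.24 in melanoma against 7.90, 8.09 and 7.98 in the proliferations (-0.77, SE 0.12). Elovl6, an elongase of fatty acids, had 8.08 and 9.15 in melanoma against 10.20, 10.33 and 10.43 in the proliferations (-1.71, SE 0.34). None overlapped. The sterol enzymes Fdps (-1.09, SE 0.21), Fdft1 (-1.09, SE 0.18), Cyp51 (-1.08, SE 0.19) and Sqle (-0.56, SE 0.16), the regulator Insig1 (-0.93, SE 0.20) and the fatty acid synthase Fasn (-0.64, SE 0.14) fell, the desaturase Scd2 rose by 0.70 (SE 0.19), and its relative Scd1 did not pass (-1.93, SE 0.65, limma adjusted p = 0.059; -1.24 without melanoma replicate 1). The call of Srebf2 held under every alternative that measured it, and those of Hmgcs1, Fdps, Fdft1 and Cyp51 under all but the fit with the sex of the array as a covariate. With any 1 of the 5 arrays left out the call ended for Sqle (-0.61 to -0.50). Fits that lacked 1 of the 5 arrays did not call Elovl6 (-1.17), Insig1 (-0.88), Fasn (-0.67) and Scd2 (0.77) without melanoma replicate 1; Fasn (-0.60) and Scd2 (0.64) without melanoma replicate 2; Scd2 (0.65) without proliferation replicate 1; Scd2 (0.70) without proliferation replicate 3. Beside this, the calls of Elovl6, Sqle and Scd2 ended with sex as a covariate, as did that of Scd2 after quantile normalization or after interquartile scaling and that of Sqle after median centring or with trended and robust moderation. Adipocyte, sebaceous and keratinocyte markers, all from lipid-making cells, were lower on the same arrays, and their part was not tested.

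Lysosomal genes passed the test in 29.6% of cases, against 21.5% of all genes, with 6 of 27 higher, 2 lower and a median of 0.29. Higher and lower members were 1 and 2 after quantile normalization and 3 and 4 after interquartile scaling. The exception in size was Atp6v0d2, a proton pump subunit of osteoclasts and other specialised cells, which had 5.47 and 5.80 in melanoma against 9.14, 9.14 and 9.64 in the proliferations, 12.7-fold lower (difference -3.67, SE 0.27, limma adjusted p = 4.03e-05). It averaged 10.24 at day 19 and 5.28 at day 50 in sorted Cdkn2a/Braf cells and 10.56 in Cdkn2a-only cells. The autophagy receptor Sqstm1 rose by 1.11 (SE 0.19). The call of Atp6v0d2 held under every alternative that measured it. With sex as a covariate or after quantile normalization the call of Sqstm1 ended. Of 22 ATF4 and amino acid supply genes 2 rose and 4 fell (27.3% called, against 21.5% of all genes), with a median of -0.17. The lipoprotein receptor Vldlr had 9.27 and 9.51 in melanoma against 7.17, 7.46 and 7.43 in the proliferations (2.04, SE 0.21), the stress protein Nupr1 rose by 1.33 (SE 0.31), and Phgdh, the first enzyme of serine synthesis (-0.76, SE 0.22), and the glutamine carrier Slc1a5 (-0.82, SE 0.17) fell. The call of Vldlr held under every alternative that measured it. Any 1 array left out ended the call of Phgdh (-0.83 to -0.69). Calls lost when 1 array was left out, with the difference then found, were Nupr1 (1.14) and Slc1a5 (-0.75) without melanoma replicate 1. The calls of Nupr1, Phgdh and Slc1a5 ended with sex as a covariate, as did that of Nupr1 after quantile normalization or after interquartile scaling and that of Phgdh after median centring.

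Glycolysis and oxidative phosphorylation showed no common direction that every scaling kept. Of 24 glycolysis and hypoxia genes 4 rose and 1 fell (20.8% called, against 21.5% of all genes; median -0.07). P4ha1, a hydroxylase of collagen, rose by 1.59 (SE 0.17). Of 27 oxidative phosphorylation subunits 4 rose and 0 fell (14.8% called, against 21.5% of all genes). Their median was 0.25, at -0.08 after quantile normalization and -0.22 after interquartile scaling. Sdha, a subunit of succinate dehydrogenase, rose by 0.83 (SE 0.25). Of 18 ribosomal protein genes 3 fell and 0 rose (16.7% called, against 21.5% of all genes). Their median of 0.10 was -1.0 after interquartile scaling, and Rplp1 fell by 0.76 (SE 0.10). The calls of P4ha1 and Rplp1 held under every alternative that measured them. No fit that lacked 1 of the 5 arrays called Sdha (0.73 to 0.93). Under further settings, the call of Sdha ended with sex as a covariate, after quantile normalization or after interquartile scaling.

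Of 10 MHC class I and immunoproteasome genes 5 fell and 1 rose (60% called, against 21.5% of all genes, median -0.45). Those that fell include the proteasome subunit Psmb9 (-1.11, SE 0.35), the peptide transporter Tap1 (-0.82, SE 0.17) and the class I transactivator Nlrc5 (-0.89, SE 0.17). For Nlrc5 19 of 19 probe sets were lower. Of 16 MHC class II and dendritic cell genes 4 fell, 0 rose and 12 did not pass (25% called, against 21.5% of all genes; median -0.48), and the 4 include the epithelial adhesion gene Epcam and the Langerhans cell gene Cd207. H2-Eb1, a class II chain, had 6.96 and 6.91 in melanoma against 9.68, 9.57 and 9.12 in the proliferations, 5.74-fold lower (difference -2.52, SE 0.20, limma adjusted p = 4.94e-05), and 9.48 and 9.31 in Cdkn2a/Braf/Lkb1 melanoma. Cd207, langerin of epidermal Langerhans cells, had 5.61 and 5.34 in melanoma against 6.61, 6.50 and 6.50 in the proliferations (-1.06, SE 0.13). The calls of H2-Eb1 and Cd207 held under every alternative that measured them, and that of Nlrc5 under all but the fit with the sex of the array as a covariate. Each of the 5 arrays was needed for the call of Psmb9 (-1.36 to -0.86). Tap1 was no longer called without melanoma replicate 1 (-0.79). Elsewhere the calls of Psmb9 and Tap1 ended with sex as a covariate, as did that of Psmb9 after median centring or with a pseudocount of 16.

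Of 21 T and NK cell markers 6 fell, 0 rose and 15 did not pass (28.6% called, against 21.5% of all genes), and of 12 B and plasma cell markers 4 fell, 0 rose and 8 did not pass (33.3% called). Cd3g, a chain of the T cell receptor complex, had 6.35 and 6.68 in melanoma against 8.28, 8.27 and 8.27 in the proliferations (-1.76, SE 0.29). Jchain, the joining chain of antibody-secreting cells, had 4.33 and 4.36 in melanoma against 8.70, 8.19 and 7.90 in the proliferations, 15.1-fold lower (difference -3.92, SE 0.19, limma adjusted p = 3.61e-06). Most members of both lists were dim, 17 of 21 and 11 of 12 of them below the median gene on both melanoma arrays. Macrophage markers were mixed (3 of 22 higher, 2 lower, 22.7% called, against 21.5% of all genes). Msr1, a scavenger receptor, had 8.22 and 7.78 in melanoma against 6.55, 6.49 and 6.48 in the proliferations (1.49, SE 0.16). Cd68 had 8.78 and 8.62 in melanoma against 10.14, 10.16 and 10.08 in the proliferations (-1.43, SE 0.27). The calls of Cd3g, Jchain and Msr1 held under every alternative that measured them, and that of Cd68 under all but the fit with the sex of the array as a covariate.

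Of 20 endothelial markers 6 rose, 0 fell and 14 did not pass (30% called, against 21.5% of all genes), with a median of 0.36. Cd93 had 10.80 and 9.58 in melanoma against 7.98, 8.01 and 7.98 in the proliferations (2.20, SE 0.51), and Eng, endoglin, had 8.54 and 8.38 in melanoma against 6.77, 6.82 and 6.61 in the proliferations (1.72, SE 0.21). Emcn (2.05, SE 0.45) and Cdh5, the endothelial cadherin (1.37, SE 0.43), rose. Of 16 mast cell markers 2 rose and 1 fell (18.8% called, against 21.5% of all genes). Their median was 0.50, at -0.13 without melanoma replicate 2. Tpsab1, a tryptase, had 7.92 and 9.99 in melanoma against 5.44, 5.49 and 5.27 in the proliferations (3.55, SE 0.53), and Mcpt2, a chymase, had 4.95 and 9.20 in melanoma against 4.04, 3.77 and 3.95 in the proliferations (3.15, SE 0.88), a level that came from replicate 2. The calls of Eng and Tpsab1 held under every alternative that measured them. With any 1 of the 5 arrays left out the call ended for Cdh5 (1.30 to 1.45). Leaving out 1 array ended the calls, with the differences in brackets, of Cd93 (1.59) and Emcn (1.90) without melanoma replicate 1; Mcpt2 (3.21) without proliferation replicate 1; Mcpt2 (3.08) without proliferation replicate 2; Mcpt2 (3.17) without proliferation replicate 3. The call stayed but the difference moved by over 1.5 times for Mcpt2 to 5.28 without melanoma replicate 1; Mcpt2 to 1.02 without melanoma replicate 2. For Cd93, Emcn, Cdh5 and Mcpt2 the calls ended with sex as a covariate, as did those of Cd93 and Cdh5 after quantile normalization, that of Cdh5 after interquartile scaling, those of Cdh5 and Mcpt2 with a pseudocount of 16 and that of Mcpt2 in a fit of the 5 compared arrays alone.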

How the data were processed

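RNA was extracted on Qiagen columns and amplified with NuGEN reagents before hybridization, per the labels' protocols. The deposited value of each of 34760 probe sets is an intensity on a linear scale (3.35 to 17698), summarised by RMA per the submitters' processing notes. For background correction, normalization settings and software versions the sources used here give nothing. The deposited intensities were taken as log2(intensity + 1), and no array was normalized again. Probe sets were named through the platform annotation: 21640 had 1 gene, 1321 several and 11799 were not listed. Of those with 1 gene, 21553 were matched to RefSeq by gene identifier, and no symbol changed. A gene took its probe set of highest mean over all arrays, which gave 19937 genes, 954 of them with several probe sets.

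A limma model (3.58.1, R 4.3.3) of 6 group means over 13 arrays gave the contrast of Cdkn2a/Braf melanoma minus Lkb1/Braf proliferation, with a two-sided test and p-values adjusted by Benjamini-Hochberg across the whole table at 0.05. The root mean variance between replicates on the log2 scale was 0.286 in melanoma and 0.193 in the proliferations. It was largest, at 0.497, in sorted Cdkn2a/Braf cells at day 50. Standard errors rest on the spread within all 6 groups, so they do not show the spread of the compared lesions alone. Precision is also limited by how few arrays there were. Tables were made in Python 3.11.15 (numpy 2.4.6, pandas 2.3.3) and plots with matplotlib 3.10.9.

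Genes named are the 15 largest increases and decreases among called genes that differed by at least 1 without overlap (predicted and small RNA genes left out), called members of largest difference in 51 gene lists, the targeted genes, sex-linked genes and microRNA precursors. A few members that did not pass are named for their role, chosen after their values were seen. Members and lists were chosen with earlier results of these data known. Alternatives covered scaling, pseudocount, dim-gene filters, probe set averaging, moderation, array weights, the arrays fitted, a replicate block, each array left out and, added after the data were seen, sex of the array.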

Additional observations from a re-analysis of the deposited data

How the results depend on the processing

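Of 233 named genes called, 92 kept the call in all of the 18 alternatives that measured them and 1, Cdk4, changed sign (-0.17 after interquartile scaling). Named calls lost numbered 34 after quantile normalization, 21 after interquartile scaling, 10 with a pseudocount of 16 and 8 or fewer under the other settings that kept all 5 arrays, sex and the block aside. The counts of 2507 higher and 1770 lower genes stayed within 1.5 times under most settings. Higher genes numbered 1461 after quantile normalization, 3919 in a fit of the 5 compared arrays alone and 632 with sex as a covariate, and from 1297 (without melanoma replicate 1) to 2079 with 1 array left out. Lower genes numbered 674 among genes above the median level, where 9968 genes were tested, 389 with sex as a covariate, and from 918 (without melanoma replicate 1) to 1498 with 1 array left out. Median centring gave 68.6% higher calls, the median-level filter 76.8% and the filter at a log2 level of 6 gave 64.7%, against 58.6% in the main setting. The cause of these shifts was not tested, beyond fewer genes or arrays where a setting removes them.

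Replicates share numbers across groups. Same-numbered melanoma and proliferation arrays deviated from their group means with correlations of -0.10 (replicate 1) and -0.05 (replicate 2). The deviations of 2 melanoma arrays mirror each other, so these values cannot decide whether the numbers pair the samples. With a replicate block 1924 genes were higher and 1304 lower, and 45 of the named calls were lost.

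Values without a call changed sign as follows. Braf was -0.11 after quantile normalization. Cdkn2a, at -0.00, was 0.07 after median centring and after quantile normalization and 0.08 after interquartile scaling, and ranged from -0.13 to 0.07 with 1 array left out. With 1 array left out Sox10 ranged from -0.21 (without melanoma replicate 2) to 0.86 and Kit from -0.44 (without melanoma replicate 2) to 0.84. Dim genes, whose differences the added constant shrinks, and 2 melanoma arrays limit what could be called.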

Other observations

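Of 30 WNT ligands, receptors and antagonists 6 rose and 3 fell (30% called, against 21.5% of all genes), with a median of -0.10. After quantile normalization 5 were higher and 7 lower. Dkk2 had 10.95 and 9.86 in melanoma against 7.23, 7.25 and 7.31 in the proliferations, 8.83-fold higher (difference 3.14, SE 0.44, limma adjusted p = 0.00111), and the antagonists Sfrp2 (1.79, SE 0.31), Dkk3 (1.58, SE 0.28) and Notum (1.11, SE 0.28) rose too. Lgr5, a receptor of hair follicle stem cells, fell by 1.71 (SE 0.47), as did the ligand Wnt4 (-0.73, SE 0.16) and the receptor Fzd6 (-0.83, SE 0.23). Of 28 NOTCH, Hedgehog, BMP and Hippo genes 3 rose and 4 fell (25% called, against 21.5% of all genes). Id3, a BMP target, had 9.53 and 9.55 in melanoma against 7.58, 7.33 and 7.62 in the proliferations, 4.09-fold higher (difference 2.03, SE 0.23, limma adjusted p = 0.000325), and the Hippo target Ccn1 rose by 1.27 (SE 0.39), while Bmp7 (-1.23, SE 0.23), the Notch ligand Jag2 (-0.94, SE 0.14) and the Hedgehog target Gli1 (-0.60, SE 0.14) fell. The calls of Id3 and Jag2 held under every alternative that measured them, and those of Dkk2, Sfrp2, Dkk3 and Bmp7 under all but the fit with the sex of the array as a covariate. Any 1 array left out ended the call of Fzd6 (-0.91 to -0.74). The test was no longer passed after removal of 1 array by Notum (1.26), Lgr5 (-1.29), Wnt4 (-0.73) and Gli1 (-0.37) without melanoma replicate 1; Notum (0.96), Wnt4 (-0.73) and Ccn1 (0.74) without melanoma replicate 2; Lgr5 (-1.71) and Ccn1 (1.32) without proliferation replicate 1; Notum (1.07) and Ccn1 (1.44) without proliferation replicate 2; Lgr5 (-1.54) and Ccn1 (1.07) without proliferation replicate 3. Differences that kept their call but moved by over 1.5 times were Sfrp2 to 1.19 without melanoma replicate 1. Apart from single arrays, the calls of Notum, Lgr5, Wnt4, Fzd6, Ccn1 and Gli1 ended with sex as a covariate, as did that of Ccn1 after quantile normalization, after interquartile scaling or with a pseudocount of 16 and that of Wnt4 with the mean of probe sets.

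Of 20 interleukin, alarmin and secretory genes 4 rose and 3 fell (35% called, against 21.5% of all genes), with a median of 0.03. Ptgs2, which makes prostaglandins, had 7.50 and 7.49 in melanoma against 5.45, 5.53 and 5.21 in the proliferations, 4.29-fold higher (difference 2.10, SE 0.24, limma adjusted p = 0.000345). Hbegf (1.73, SE 0.35), Ereg (1.19, SE 0.20) and the macrophage factor Csf1 (0.77, SE 0.23) rose, and Il1a (-1.12, SE 0.30) and the receptor antagonist Il1rn (-0.95, SE 0.13) fell. Of 24 chemokine genes 2 rose, Ccl17 (1.34, SE 0.41) and Ccr1 (1.24, SE 0.17), and 3 fell (20.8% called, against 21.5% of all genes). Of 22 interferon response genes 3 rose and 0 fell (13.6% called, against 21.5% of all genes), among them Ifit2 (1.29, SE 0.34) and Ifit3 (1.35, SE 0.34). The calls of Ptgs2, Il1rn and Ccr1 held under every alternative that measured them, and that of Ereg under all but the fit with the sex of the array as a covariate. No fit that lacked 1 of the 5 arrays called Csf1 (0.62 to 0.92) and Ccl17 (1.15 to 1.45). Dependence of the call on 1 array was found for Il1a (-0.83), Ifit2 (0.79) and Ifit3 (1.10) without melanoma replicate 1; Hbegf (1.17) without melanoma replicate 2; Il1a (-1.11) and Ifit2 (1.32) without proliferation replicate 1; Ifit2 (1.27) and Ifit3 (1.15) without proliferation replicate 2; Il1a (-0.83), Ifit2 (1.27) and Ifit3 (1.33) without proliferation replicate 3. In other fits the calls of Hbegf, Csf1, Il1a, Ccl17, Ifit2 and Ifit3 ended with sex as a covariate, as did those of Csf1 and Il1a after quantile normalization, that of Il1a after interquartile scaling and that of Ccl17 with a pseudocount of 16.

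Vessel wall genes were called in both directions. Of 13 pericyte and smooth muscle genes 53.8% were called, against 21.5% of all genes. In this list 3 rose, with the pericyte regulator Rgs5 at 1.55 (SE 0.17), and 4 fell, with the smooth muscle actin Acta2 at -1.04 (SE 0.23). Of 15 neutrophil genes 1 fell (6.67% called), the lectin Clec4d (-2.08, SE 0.31), and of 5 erythrocyte genes limma called 0, with 1 at an unadjusted p under 0.05. The calls of Rgs5 and Clec4d held under every alternative that measured them. Acta2 was no longer called without melanoma replicate 1 (-0.95). Beside this, the call of Acta2 ended with sex as a covariate.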
